A study of Mus musculus with 69 samples.

Results

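The genes described here are 33 mouse genes for proteins of the lysosomal membrane, its channels and transporters, and the sorting system that delivers enzymes to lysosomes. They were taken by symbol from the gene table, where each of the 33 matched 1 gene identifier among 56980 genes, and all 33 were among the 12008 genes with enough counts to be tested. They fall into 8 membrane glycoproteins and multi-pass proteins (Lamp1, Lamp2, Cd68, Scarb2, Tmem192, Laptm4a, Laptm4b, Laptm5), 3 sterol and lipid genes (Npc1, Npc2, Abca2), 5 ion channel genes (Mcoln1, Clcn7, Ostm1, Tpcn1, Tpcn2), 12 genes for small-molecule transporters and a related enzyme (Ctns, Slc17a5, Slc29a3, Slc15a3, Slc15a4, Slc36a1, Spns1, Lmbrd1, Hgsnat, Mfsd12, Mfsd8, Cln3) and 5 sorting genes (Igf2r, M6pr, Gnptab, Gnptg, Gga1).

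The cells were macrophages grown from wild-type mouse bone marrow in M-CSF at 50 ng/mL, then frozen, thawed and edited with Cas9 ribonucleoprotein (the nuclease loaded with its guide RNA). The edited genes were Atp6v1a (a subunit of the proton pump that acidifies lysosomes), Npc1 (a cholesterol exporter), Pik3c3 (a lipid kinase of autophagy and endosome traffic), Ctsd (the protease cathepsin D), Grn (progranulin) and Trem2 (a lipid-sensing surface receptor), with the Rosa26 locus edited as the control. Cells were collected 4 or 13 days after editing; the sample labels give these numbers as hours and the series design as days, which are used here. Each of the 14 groups had 5 biological replicates, each pooled from 6 mice, except Npc1-targeted cells at day 4, which had 4. All groups, controls included, went through the same editing step and the same M-CSF culture. The sources used here give no age or sex of the mice, and an edited culture is a pool of cells with different edits. The libraries were 3′ tag libraries (QuantSeq), and levels are given as CPM, counts scaled to the same library total, with the SD over replicates. Changes are log2 fold changes of targeted over Rosa26 cells with their SE, from edgeR's quasi-likelihood test over all 12008 genes, and a gene is called at a Benjamini-Hochberg adjusted p under 0.05.

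Lysosomal membranes are lined by heavily glycosylated proteins that shield them from the hydrolases inside. Channels and transporters set the ion content of the lumen and return the products of digestion to the cytosol. Newly made hydrolases receive a mannose 6-phosphate tag in the Golgi and are carried onward by receptors for that tag. In macrophages, which degrade what they engulf, many such genes are under control of the transcription factor TFEB and its relatives, which bind a short promoter element around the letters CACGTG.

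Promoter sequences are shown for the 4 members that carry CACGTG more than once in the window and were called in 2 or more comparisons with Rosa26 cells, in either direction, so that the letters can be set beside the levels. They come from RefSeq on GRCm38.p6, run from 250 bases before to 50 bases after the annotated start, and lie on the plus strand at chr8:13158911-13159210 for Lamp1, chr17:25133141-25133440 for Clcn7 and chr8:3500269-3500568 for Mcoln1, and on the minus strand at chr17:12769657-12769956 for Igf2r. Each is written in the direction of transcription. Capitals mark each match to TCACGTG on either strand.
Lamp1: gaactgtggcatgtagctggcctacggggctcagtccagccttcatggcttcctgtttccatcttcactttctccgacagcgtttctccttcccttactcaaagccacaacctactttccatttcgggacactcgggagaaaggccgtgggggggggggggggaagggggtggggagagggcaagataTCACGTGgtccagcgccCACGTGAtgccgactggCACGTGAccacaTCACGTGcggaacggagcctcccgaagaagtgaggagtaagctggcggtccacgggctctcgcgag
Clcn7: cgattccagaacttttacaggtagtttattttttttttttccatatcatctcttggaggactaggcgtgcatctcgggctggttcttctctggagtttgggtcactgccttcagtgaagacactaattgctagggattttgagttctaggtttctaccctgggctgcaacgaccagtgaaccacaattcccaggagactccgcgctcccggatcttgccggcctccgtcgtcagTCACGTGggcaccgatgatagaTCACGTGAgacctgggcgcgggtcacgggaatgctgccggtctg
Mcoln1: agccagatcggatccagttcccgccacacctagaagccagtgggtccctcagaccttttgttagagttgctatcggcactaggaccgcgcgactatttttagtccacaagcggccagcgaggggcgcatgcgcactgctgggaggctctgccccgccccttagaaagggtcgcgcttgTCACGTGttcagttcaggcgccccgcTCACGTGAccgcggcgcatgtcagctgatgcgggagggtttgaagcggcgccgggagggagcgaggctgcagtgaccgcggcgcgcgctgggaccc
Igf2r: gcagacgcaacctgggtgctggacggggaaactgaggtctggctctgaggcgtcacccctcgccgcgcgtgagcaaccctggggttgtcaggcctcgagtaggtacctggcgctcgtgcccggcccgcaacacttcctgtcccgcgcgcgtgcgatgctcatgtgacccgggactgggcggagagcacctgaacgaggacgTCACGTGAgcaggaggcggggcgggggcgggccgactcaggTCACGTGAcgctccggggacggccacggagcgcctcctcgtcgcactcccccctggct
Positions are those of the first base of CACGTG inside each stretch of capitals. In the Lamp1 window CACGTG begins 61, 45, 28 and 15 bases before the start. In Clcn7 it begins 15 bases before the start and at base 8 after it, in Mcoln1 71 and 45 bases before the start, and in Igf2r 48 and 7 bases before it. A stretch that reads TCACGTGA matches TCACGTG on both strands, so over both strands the matches number 4 in Lamp1, 3 in Clcn7, 3 in Mcoln1 and 4 in Igf2r. Lamp1, Clcn7 and Mcoln1 were called higher at day 13, Clcn7 was called lower at day 4 in Trem2-targeted cells, and Igf2r was called higher in Pik3c3-targeted and lower in Trem2-targeted cells. Promoter windows were matched for 27 of the 33 members, as 32 windows. TCACGTG, read on both strands, stood in 8 of these 32 windows (25%), those of 7 genes: Clcn7, Cln3, Gnptg, Igf2r, Lamp1, Mcoln1 and Slc36a1. It stood in 1237 of all 32851 RefSeq promoter windows of that length (3.77%). Gnptg entered with overlapping windows that hold the same site. Clcn7 and Cln3 each have another window without CACGTG, which for Clcn7 lies at chr17:25136381-25136680 and is not shown. Counted by gene, the shares were 25.9% of the members and 4.29% of all genes with a window. The shorter CACGTG, which lies inside TCACGTG, was in 25% of the member windows and in 2349 of all windows (7.15%). A match describes letters in a window and does not show binding. Of the 7 genes with TCACGTG, Cln3 and Gnptg were called in no comparison with Rosa26 cells, where 8 of all 33 members were called in none. Whether the motif goes with being called was not tested, and being called was part of the choice of the 4 sequences shown.

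Library totals ran from 2194566 to 4688285 counts with a median of 3404743. A label divides the libraries into 47 Regular and 22 Low-input ones, without saying what sets them apart. At day 13 the Low-input libraries were 1 of the Rosa26 cells (replicate 5), 3 each of Atp6v1a-, Npc1- and Ctsd-targeted cells, 4 of Pik3c3-, 2 of Grn- and all 5 of Trem2-targeted cells. Among the day 13 Rosa26 cells, only that 1 control library shares the protocol of the Trem2-targeted cells. Protocol and target are otherwise separated there only by a protocol term that the fit draws from all groups holding both protocols. Low-input against Regular libraries had 22 of the 33 members called, 19 higher and 3 lower, with 67% of all tested genes called (34.9% higher, 32.1% lower). The fit has 1 term for protocol, shared by all groups, so the log2 changes have a common protocol difference removed while CPM values keep it. Whether that difference was the same in every group was not tested. The targeted message retained between 17.2% (Grn at day 13) and 73.5% (Atp6v1a at day 13) of its Rosa26 level. All 10 macrophage markers on the list were tested and expressed in all libraries, and 1 of them, Cd68, is also a member. At day 13 Atp6v1a-targeted cells had only Cd68 higher and 7 markers lower, and Grn-targeted cells only Cd68 higher and 5 lower. Npc1-targeted cells had 3 lower, Pik3c3-targeted cells 3 higher and 6 lower, and Trem2-targeted cells 5 higher and 1 lower. Cd68 was among the higher ones in Pik3c3- and Trem2-targeted cells. At day 4 Grn-targeted cells had 1 higher and 6 lower, and Trem2-targeted cells 3 higher and 5 lower, with Cd68 among the lower ones in both. Of 8 stromal markers 4 were tested. The summed level of all 8 was 4.34 to 9.01 CPM in Grn-targeted and 22.4 to 339 CPM in Rosa26 cells at day 13, the highest being Rosa26 replicate 5. The 4 tested markers were all called lower in every targeted group at day 13 except Trem2, where 2 were. Of 24 markers of brain cells 22 were tested. All 24 summed to 336 to 469 CPM in Grn-targeted and 163 to 644 CPM in Trem2-targeted cells at day 4, against 297 to 333 CPM in Rosa26 cells. Of the 22, 15 were higher and 1 lower in Grn-targeted cells, and 19 higher and 2 lower in Trem2-targeted cells. At day 13 all 24 summed to 130.0 to 159 CPM in Grn-targeted and 186 to 583 CPM in Rosa26 cells, with 17 called lower in Grn-, 5 in Atp6v1a- and 3 in Pik3c3-targeted cells. Of 6 erythroid markers 3 were tested, and all 3 were higher in Grn- and Trem2-targeted cells at day 4 and lower in Grn-targeted cells at day 13. Sums over all 6 were at most 36.1 CPM, and 1 each was lower at day 13 in Atp6v1a-, Pik3c3- and Trem2-targeted cells. Of 8 neutrophil markers 3 were tested, and 1 was higher at day 13 in each of Atp6v1a-, Pik3c3- and Grn-targeted cells. Sums over all 8 were at most 15.96 CPM there, against at most 5.01 CPM in Rosa26 cells of day 13. No dendritic cell marker of 6 and no lymphocyte marker of 7 was expressed enough to be tested. The part of these markers in the changes below was not tested, and in bulk samples fewer cells of a type and less RNA per cell cannot be told apart.

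At day 13 most of the calls among the 33 genes were increases, in Grn-, Pik3c3- and Atp6v1a-targeted cells, while Ctsd-targeted cells had none. Grn-targeted cells had 14 members higher and 1 lower than Rosa26 cells (45.5% called), where 25.2% of all tested genes were called (12.5% higher, 12.7% lower). Pik3c3-targeted cells had 11 higher and 1 lower (36.4%), against 13.2% of all genes (7.11% higher, 6.1% lower). Atp6v1a-targeted cells had 10 higher and 1 lower (33.3%), against 24.4% of all genes (12.8% higher, 11.6% lower), so that their total was nearer to the background. Trem2-targeted cells had 6 higher and 5 lower (33.3%), against 22.2% of all genes (11.3% higher, 10.9% lower). In Npc1-targeted cells, with Npc1 itself set apart, 2 of 32 members were higher and 1 lower (9.38%), against 4.46% of all genes (2.71% higher, 1.76% lower). Ctsd-targeted cells had 0 calls by edgeR and 0 by DESeq2, with 5 members at an unadjusted p under 0.05, and 0.2% of all genes called (0.00833% higher, 0.192% lower).

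At day 4 the picture was carried by Trem2-targeted cells, in which 16 of the 33 members changed, 7 higher and 9 lower (48.5%), against 24.3% of all genes (11.4% higher, 12.9% lower). Grn-targeted cells had 1 member higher and 2 lower (9.09%), against 8.04% of all genes (4.45% higher, 3.6% lower), a share near the background. Pik3c3-targeted cells had only Hgsnat called among the members (3.03%), against 0.175% of all genes (0.117% higher, 0.0583% lower). Atp6v1a-, Npc1- and Ctsd-targeted cells had 0 members called by edgeR and 0 by DESeq2, with 0, 2 and 2 members at an unadjusted p under 0.05, and with 0.00833%, 0.00833% and 0.125% of all genes called (for Ctsd 0.05% higher and 0.075% lower). The median change of the members at day 13 was 0.25 in Grn-, 0.26 in Pik3c3-, 0.15 in Atp6v1a-, 0.15 in Npc1-, 0.12 in Trem2- and 0.05 in Ctsd-targeted cells, where the medians over all genes lay between -0.02 and 0.03. Rosa26 replicate 5 at day 13 is both the only Low-input control of that day and the library highest in stromal markers. Without it the members called at day 13 numbered 11 in Grn-, 8 in Pik3c3-, 9 in Atp6v1a-, 8 in Trem2-, 2 in Npc1- and 0 in Ctsd-targeted cells, while all genes called numbered 2588 in Grn- (against 3028 with it), 1321 in Pik3c3- (1587), 2524 in Atp6v1a- (2927), 2078 in Trem2- (2666), 417 in Npc1- (536) and 3 in Ctsd-targeted cells (24). Without Trem2 replicate 1, the only Low-input library of day 4, Trem2-targeted cells had 15 members called at day 4, and 2511 of all genes (against 2912). All these comparisons at 1 day share the same Rosa26 libraries, so they are not independent of each other. In all, 25 members were called in at least 1 of the 12 comparisons, and Abca2, Cln3, Gga1, Gnptg, Laptm5, M6pr, Mfsd8 and, outside Npc1-targeted cells, Npc1 in none. How many of all tested genes were called in at least 1 of the 12 was not counted, so the 25 have no background beside them.

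**Figure D1:**
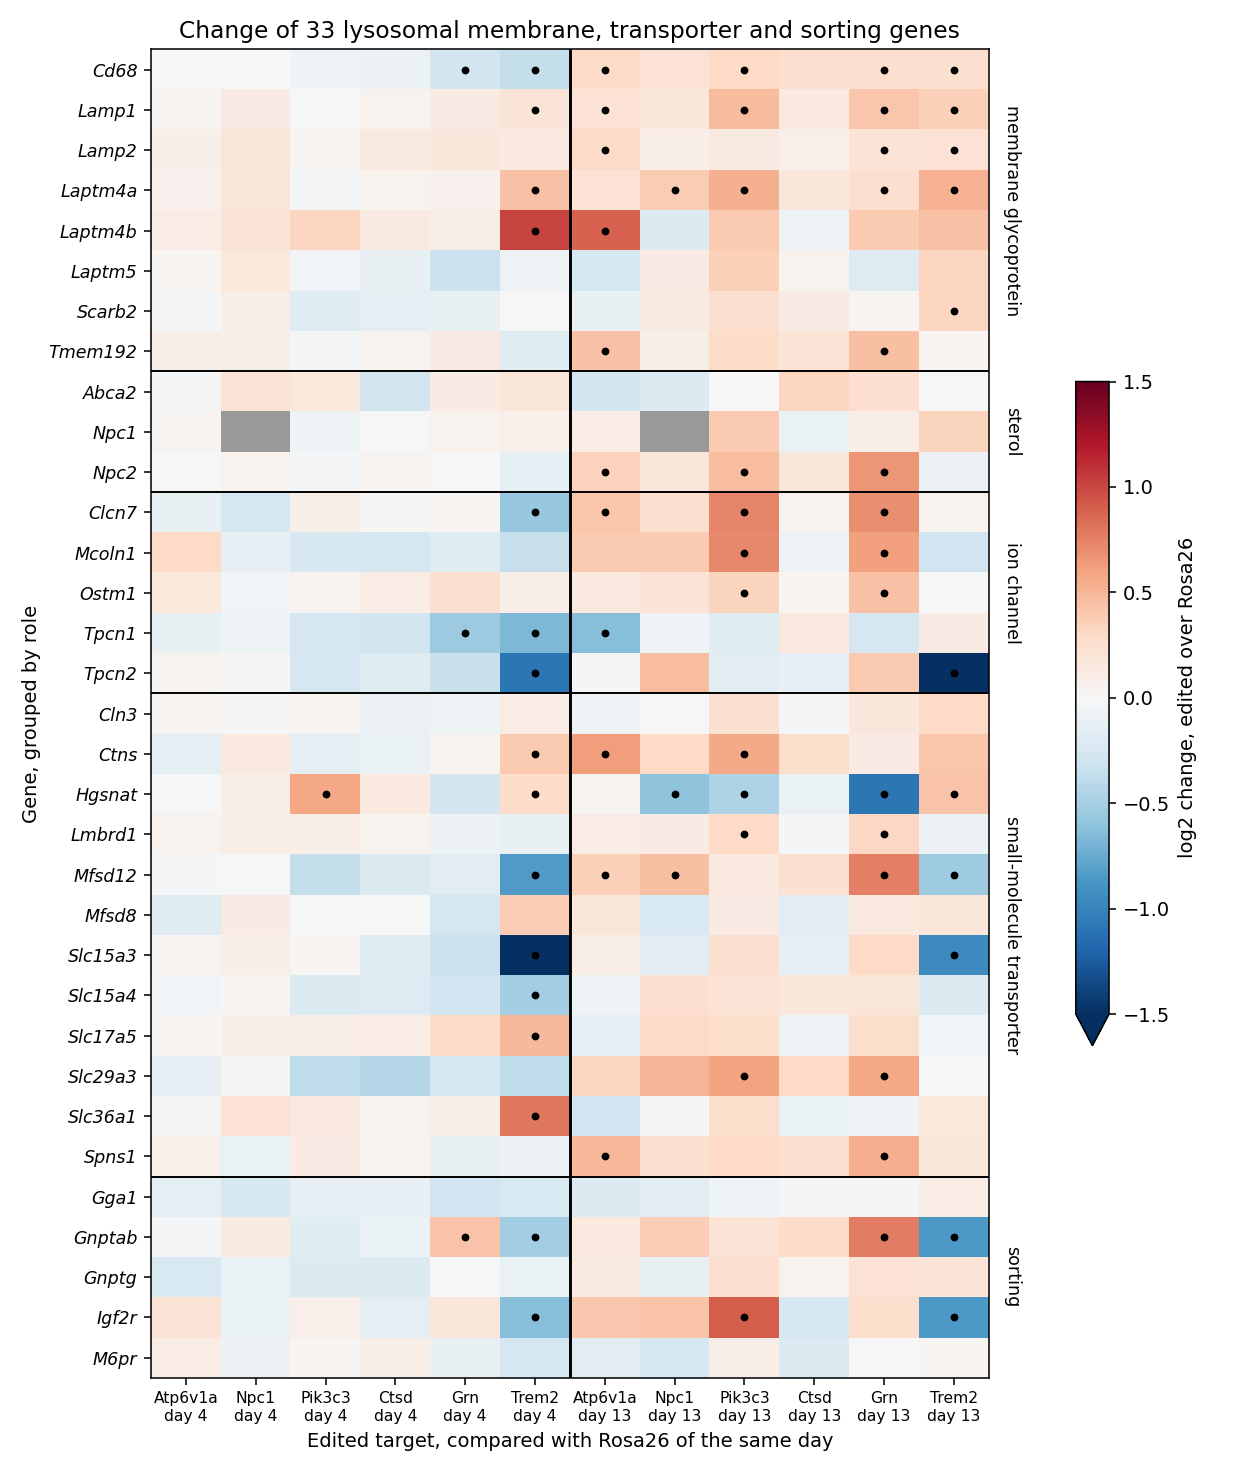
Log2 change of each of the 33 members (rows, by role) in the 6 targeted groups against Rosa26 cells at day 4 and day 13 (columns), with a dot on called changes, grey where Npc1 is the targeted gene, and colours ending at 1.5 in either direction. Red cells (higher) gather at day 13 in Grn-, Pik3c3- and Atp6v1a-targeted cells, and the darkest blue cells are Tpcn2 at day 13 (-2.50) and Slc15a3 at day 4 (-1.498), both in Trem2-targeted cells.

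**Figure D2:**
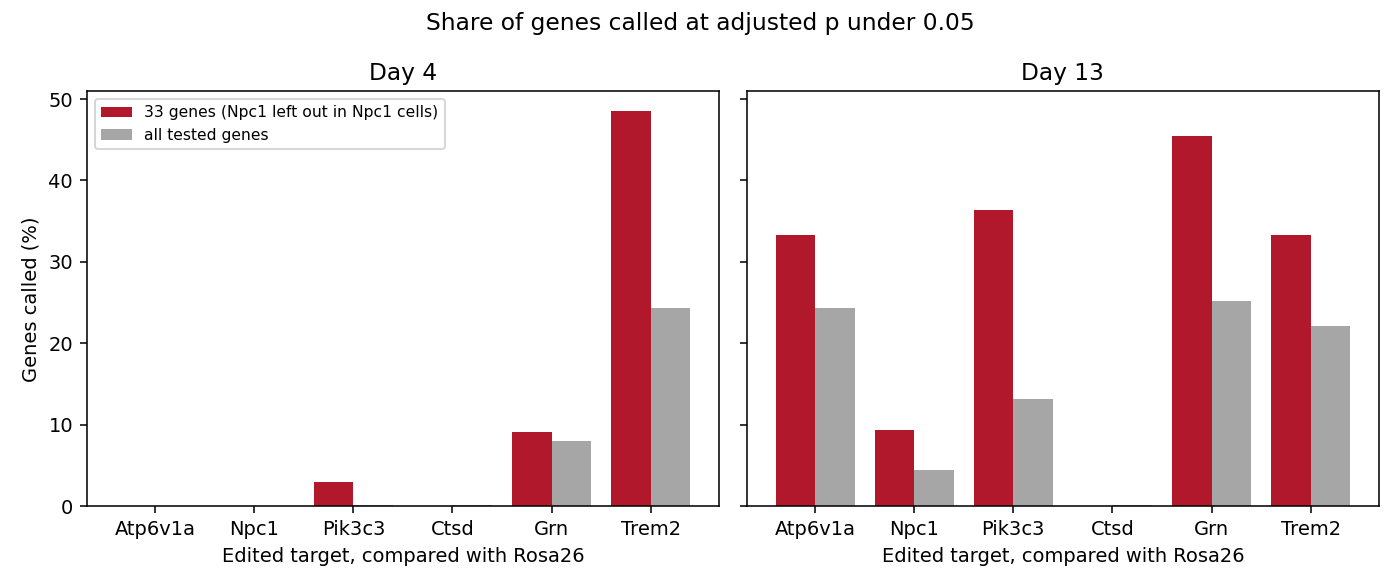
Percent of the 33 members (32 in Npc1-targeted cells) and percent of all 12008 tested genes called in each comparison with Rosa26 cells. The members stand at 45.5% in Grn-targeted cells at day 13, against 25.2% of all genes, and at 48.5% in Trem2-targeted cells at day 4, against 24.3%.

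Lamp1 and Cd68 were higher than in Rosa26 cells of the same day at day 13 in Atp6v1a-, Pik3c3-, Grn- and Trem2-targeted cells. Neither was called at day 13 in Npc1- or Ctsd-targeted cells. Lamp1, the main glycoprotein of the lysosomal membrane, was at 2674, 1928, 2722, 2658 and 2725 CPM in Pik3c3-targeted cells, against 1377, 1575, 1455, 1316 and 2102 CPM in Rosa26 cells. Only Pik3c3 replicate 2 lay below the highest Rosa26 library, which was replicate 5, the Low-input one. Lamp1 rose by 0.47 ± 0.07 (log2) there (adjusted p = 1.60e-07), by 0.42 ± 0.07 in Grn-targeted (1.09e-06), 0.36 ± 0.07 in Trem2-targeted (8.25e-05) and 0.22 ± 0.07 in Atp6v1a-targeted cells (0.00857). Cd68, a lysosomal glycoprotein typical of macrophages, was higher by 0.24 to 0.30 in the same 4 groups at day 13. It was at 877 ± 61.3 CPM in Trem2-targeted cells, against 611 ± 118 CPM in Rosa26 cells (SD, n = 5 each). All 5 of those Trem2 libraries were Low-input, and the Low-input Rosa26 replicate 5 was at 807 CPM. At day 4 Cd68 was instead lower than in Rosa26 cells, by 0.36 ± 0.08 in Trem2-targeted cells (adjusted p = 0.000409) and by 0.27 ± 0.08 in Grn-targeted cells (0.0255). In Rosa26 cells themselves Cd68 fell between the days, to the lowest mean CPM of the 14 groups. Lamp2, the partner of Lamp1 with a role in autophagy, rose at day 13 in Atp6v1a- (0.29 ± 0.07), Grn- (0.21 ± 0.07) and Trem2-targeted cells (0.21 ± 0.08). Several of these calls hung on single libraries. The Cd68 call at day 13 was lost in Grn-targeted cells without Rosa26 replicate 3 or 4 or Grn replicate 3 or 4 (adjusted p up to 0.0767), and in Trem2-targeted cells without any of replicates 2 to 5 of either group (up to 0.107). The Lamp2 call was lost in Grn-targeted cells without Rosa26 replicate 4 or Grn replicate 1, 2 or 5 (up to 0.110), and in Trem2-targeted cells without Rosa26 replicate 2, 3, 4 or 5 or Trem2 replicate 2, 3 or 5 (up to 0.111). At day 4 the Cd68 call in Grn-targeted cells was lost without Rosa26 replicate 3 or Grn replicate 2 or 3 (up to 0.0817).

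Of the multi-pass proteins of the Laptm family, Laptm4a and Laptm4b rose in some groups and Laptm5 was called against Rosa26 cells in none. Laptm4b, a late endosomal membrane protein, was at 14.3, 11.2, 16.2, 14.2 and 9.55 CPM in Trem2-targeted cells at day 4, against 4.99, 6.15, 7.67, 5.28 and 6.84 CPM in Rosa26 cells. Every Trem2 library lay above every Rosa26 library, and the change was 1.02 ± 0.19 (adjusted p = 2.32e-05). At day 13 it rose in Atp6v1a-targeted cells by 0.88 ± 0.18 (9.68e-05), with 17.3 ± 3.67 CPM, against 8.38 ± 1.93 CPM in Rosa26 cells (SD, n = 5 each), again without overlap. Laptm4a, its close relative, rose at day 13 in Pik3c3- (0.54 ± 0.10, adjusted p = 3.49e-05), Trem2- (0.52 ± 0.10, 8.13e-05), Npc1- (0.39 ± 0.10, 0.00946) and Grn-targeted cells (0.25 ± 0.09, 0.0451), and at day 4 in Trem2-targeted cells (0.44 ± 0.09, 0.000228). The Grn call was lost without Rosa26 replicate 3, 4 or 5 or Grn replicate 1, 2 or 5 (adjusted p up to 0.168). Laptm5, the member of the family made in blood cells, had changes between -0.33 and 0.35. Tmem192, a lysosomal membrane protein used as a handle to isolate lysosomes, rose at day 13 in Grn- (0.45 ± 0.09, adjusted p = 0.000141) and Atp6v1a-targeted cells (0.43 ± 0.09, 0.000254). Scarb2, the receptor that carries glucocerebrosidase to lysosomes, rose only at day 13 in Trem2-targeted cells among these comparisons, by 0.32 ± 0.11 (0.0227), a call lost without Rosa26 replicate 1 or 5 or Trem2 replicate 2 or 3 (up to 0.0977). The Lamp1 rise of 0.20 ± 0.07 in Trem2-targeted cells at day 4 (0.0180) was likewise lost without Rosa26 replicate 1 or Trem2 replicate 4 (up to 0.0970).

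Npc2 was the sterol gene that moved. It encodes the soluble carrier that hands cholesterol to Npc1 inside the lysosome. At day 13 it was at 2087, 2272, 3366, 3319.9 and 2273 CPM in Grn-targeted cells, against 1471, 1535, 1387, 1360.1 and 2279.7 CPM in Rosa26 cells. The highest Rosa26 value was again the Low-input replicate 5, and the 2 highest Grn values were its Low-input replicates 3 and 4. Npc2 rose by 0.67 ± 0.07 in Grn-targeted (adjusted p = 8.67e-12), 0.46 ± 0.07 in Pik3c3-targeted (1.30e-06) and 0.35 ± 0.07 in Atp6v1a-targeted cells (8.92e-05), and each of these calls was kept when any 1 library was left out. Abca2, a lipid transporter of late endosomes, was called in no group, with changes between -0.28 and 0.32.

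Npc1, the exporter of cholesterol from the lysosome, is the edited gene in Npc1-targeted cells and checks the labels there. It was at 22.4, 31.8, 25.9 and 35.3 CPM in Npc1-targeted cells at day 4, against 84.5, 88.8, 92.0, 82.0 and 93.5 CPM in Rosa26 cells. At day 13 it was at 25.3, 30.9, 30.5, 31.2 and 42.6 CPM in Npc1-targeted cells, with 84.6 to 116 CPM in Rosa26 cells. The groups did not overlap at either day, and the changes were -1.60 ± 0.18 (adjusted p = 1.23e-08) and -1.55 ± 0.17 (1.47e-09). In the other 5 targeted groups Npc1 was not called, with changes between -0.10 and 0.39. Npc2 was not called in Npc1-targeted cells at either day.

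Among the ion channel genes, Clcn7 and Mcoln1 rose at day 13 in Grn- and Pik3c3-targeted cells. Tpcn2 fell in Trem2-targeted cells at both days, and Tpcn1 there at day 4 only. Clcn7 encodes the chloride-proton exchanger of lysosomes. It was at 103.6, 83.4, 131, 115.5 and 136.8 CPM in Pik3c3-targeted cells at day 13, against 45.8, 54.3, 58.6, 60.6 and 75.8 CPM in Rosa26 cells. All 5 Pik3c3 libraries lay above all 5 Rosa26 libraries, and the lowest of them was replicate 2, the only Regular one. The change was 0.73 ± 0.11 (adjusted p = 2.65e-07), with 0.69 ± 0.10 in Grn-targeted (3.82e-07) and 0.42 ± 0.11 in Atp6v1a-targeted cells (0.00174). In Trem2-targeted cells at day 4 Clcn7 fell by 0.56 ± 0.11 (3.04e-05). Ostm1, the subunit that stabilises this exchanger, rose at day 13 in Grn- (0.44 ± 0.10, 0.000399) and Pik3c3-targeted cells (0.34 ± 0.10, 0.0165), the second call being lost without Pik3c3 replicate 4 (0.0651).

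Mcoln1, the cation channel that releases calcium from lysosomes, was at 13.95, 14.3, 19.5, 20.5 and 16.9 CPM in Pik3c3-targeted cells at day 13, against 11.56, 10.6, 7.00, 12.8 and 9.41 CPM in Rosa26 cells. The groups did not overlap, but these levels are low and the calls were less stable than those of Clcn7. The change was 0.72 ± 0.22 in Pik3c3-targeted (adjusted p = 0.0162) and 0.62 ± 0.21 in Grn-targeted cells (0.0209). The first was lost without Rosa26 replicate 3 or 5 or Pik3c3 replicate 4 (up to 0.0960), and the second without replicate 3 or 5 of either group (up to 0.133).

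Tpcn2, an endolysosomal cation channel, had the largest called change of the members other than the targeted gene. At day 13 it was at 1.93, 1.79, 2.995, 0.854 and 3.39 CPM in Trem2-targeted cells, against 13.98, 9.80, 10.35, 9.57 and 10.2 CPM in Rosa26 cells. Every Trem2 library lay far below every Rosa26 library, including the Low-input replicate 5 at 10.2 CPM. The change was -2.50 ± 0.28 (adjusted p = 9.61e-11). At day 4 it fell by 1.08 ± 0.21 (3.17e-05), with 7.00 ± 1.59 CPM in Trem2-targeted and 14.3 ± 2.69 CPM in Rosa26 cells (SD, n = 5 each). Tpcn1, its relative, fell at day 4 in Trem2- (by 0.68 ± 0.13, 5.88e-05) and Grn-targeted cells (by 0.55 ± 0.13, 0.00487), and at day 13 in Atp6v1a-targeted cells (by 0.64 ± 0.14, 0.000210). It was at 119 ± 26.6 CPM in Atp6v1a-targeted cells, against 162 ± 25.7 CPM in Rosa26 cells (SD, n = 5 each), and these 3 calls were kept when any 1 library was left out.

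Hgsnat, the membrane enzyme that acetylates heparan sulfate inside the lysosome, went opposite ways under different targets. At day 13 it was at 23.8, 28.9, 37.1, 45.9 and 33.1 CPM in Grn-targeted cells, against 64.1, 50.6, 56.7, 57.0 and 115.8 CPM in Rosa26 cells. The groups did not overlap, and the Low-input libraries were the high ones in each, replicates 3 and 4 in Grn-targeted cells and replicate 5 in Rosa26 cells. The change was -1.08 ± 0.11 (adjusted p = 5.40e-12). It also fell in Npc1- (by 0.60 ± 0.11, 0.000177) and Pik3c3-targeted cells (by 0.46 ± 0.11, 0.00184), although the CPM ranges overlapped there. In Trem2-targeted cells it rose at day 13 by 0.43 ± 0.11 (0.00289) and at day 4 by 0.28 ± 0.10 (0.0358). All 5 Trem2 libraries of day 13 were Low-input, at 129 ± 17.3 CPM (SD), and the Low-input Rosa26 replicate 5 was close to them, at 115.8 CPM. Hgsnat was called higher in Low-input than in Regular libraries, so this rise rests on the protocol term. Pik3c3-targeted cells at day 4 had 113, 112, 126, 106 and 104 CPM, against 74.2, 61.3, 83.9, 80.5 and 80.4 CPM in Rosa26 cells, a rise of 0.58 ± 0.10 (0.00141) without overlap. The day 13 call in Pik3c3-targeted cells was lost without Rosa26 replicate 5 (0.0546), and the day 4 call in Trem2-targeted cells without Rosa26 replicate 2 or Trem2 replicate 3 or 4 (up to 0.160).

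Apart from Hgsnat, the transporter genes that fell at day 13 were Slc15a3 and Mfsd12, both in Trem2-targeted cells. Slc15a3, which moves histidine and small peptides out of endolysosomes with protons, was at 8.945, 5.58, 5.51, 9.90 and 13.1 CPM in Trem2-targeted cells at day 4, against 27.6, 18.7, 21.9, 20.1 and 25.4 CPM in Rosa26 cells. The groups did not overlap, and the change was -1.498 ± 0.194 (adjusted p = 3.98e-09). It fell at day 13 as well, by 0.96 ± 0.17 (6.51e-06), with 29.9 ± 5.24 CPM in Trem2-targeted and 48.6 ± 10.9 CPM in Rosa26 cells (SD, n = 5 each), where the CPM ranges overlapped. Slc15a4, its relative with a known part in endosomal Toll-like receptor signalling, fell at day 4 in Trem2-targeted cells by 0.52 ± 0.13 (0.000921).

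Mfsd12, which imports cysteine into lysosomes, was at 96.0, 75.5, 80.5, 87.4 and 99.1 CPM in Trem2-targeted cells at day 4, against 117, 165, 145, 168 and 147 CPM in Rosa26 cells. All Trem2 libraries were below all Rosa26 libraries, with a change of -0.85 ± 0.13 (adjusted p = 1.65e-07), and at day 13 it fell by 0.53 ± 0.14 (0.00272). It rose at day 13 in Grn- (0.75 ± 0.12, 3.33e-06), Npc1- (0.45 ± 0.13, 0.0216) and Atp6v1a-targeted cells (0.36 ± 0.13, 0.0265). The Npc1 call was lost without Rosa26 replicate 1 or 5 or Npc1 replicate 4 (up to 0.103), and the Atp6v1a call without Rosa26 replicate 5 or Atp6v1a replicate 2, 4 or 5 (up to 0.133). Slc36a1, a proton-coupled exporter of amino acids, was at 71.0, 64.3, 53.0, 67.95 and 70.04 CPM in Trem2-targeted cells at day 4, against 33.4, 42.3, 34.9, 36.0 and 33.5 CPM in Rosa26 cells. It lay higher in every Trem2 library, with a change of 0.79 ± 0.12 (1.12e-07). Slc17a5, the sialic acid exporter sialin, rose in the same comparison by 0.49 ± 0.11 (0.000342).

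Ctns, the cystine exporter cystinosin, rose at day 13 in Atp6v1a-targeted cells by 0.62 ± 0.15 (adjusted p = 0.000915), with 35.6, 56.1, 50.2, 55.6 and 56.3 CPM, against 27.2, 30.4, 33.7, 36.9 and 28.2 CPM in Rosa26 cells. Only Atp6v1a replicate 1 lay below the highest Rosa26 library. Ctns also rose in Pik3c3-targeted cells by 0.56 ± 0.16 (0.00818), a call lost without Rosa26 replicate 5 (0.0807), and at day 4 in Trem2-targeted cells by 0.40 ± 0.15 (0.0414), lost without Rosa26 replicate 1, 3 or 4 or Trem2 replicate 1, 3, 4 or 5 (up to 0.116). Spns1, a lysophospholipid exporter, rose at day 13 in Grn- (0.55 ± 0.15, 0.00366) and Atp6v1a-targeted cells (0.50 ± 0.15, 0.00869), both lost without Rosa26 replicate 5 (0.0583 and 0.120). Lmbrd1, needed for the export of cobalamin, rose in Grn- (0.31 ± 0.08, 0.00338) and Pik3c3-targeted cells (0.30 ± 0.09, 0.0131). Slc29a3, a nucleoside transporter, rose in Pik3c3- (0.60 ± 0.20, 0.0330) and Grn-targeted cells (0.58 ± 0.19, 0.0193). The first was lost without Rosa26 replicate 1 or 5 or Pik3c3 replicate 2, 3, 4 or 5 (up to 0.145), and the second without Rosa26 replicate 1 or 5 or Grn replicate 3 or 4 (up to 0.163). Cln3 and Mfsd8, both mutated in forms of neuronal ceroid lipofuscinosis, were called in no group, with changes between -0.08 and 0.30 and between -0.27 and 0.38.

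**Figure D3:**
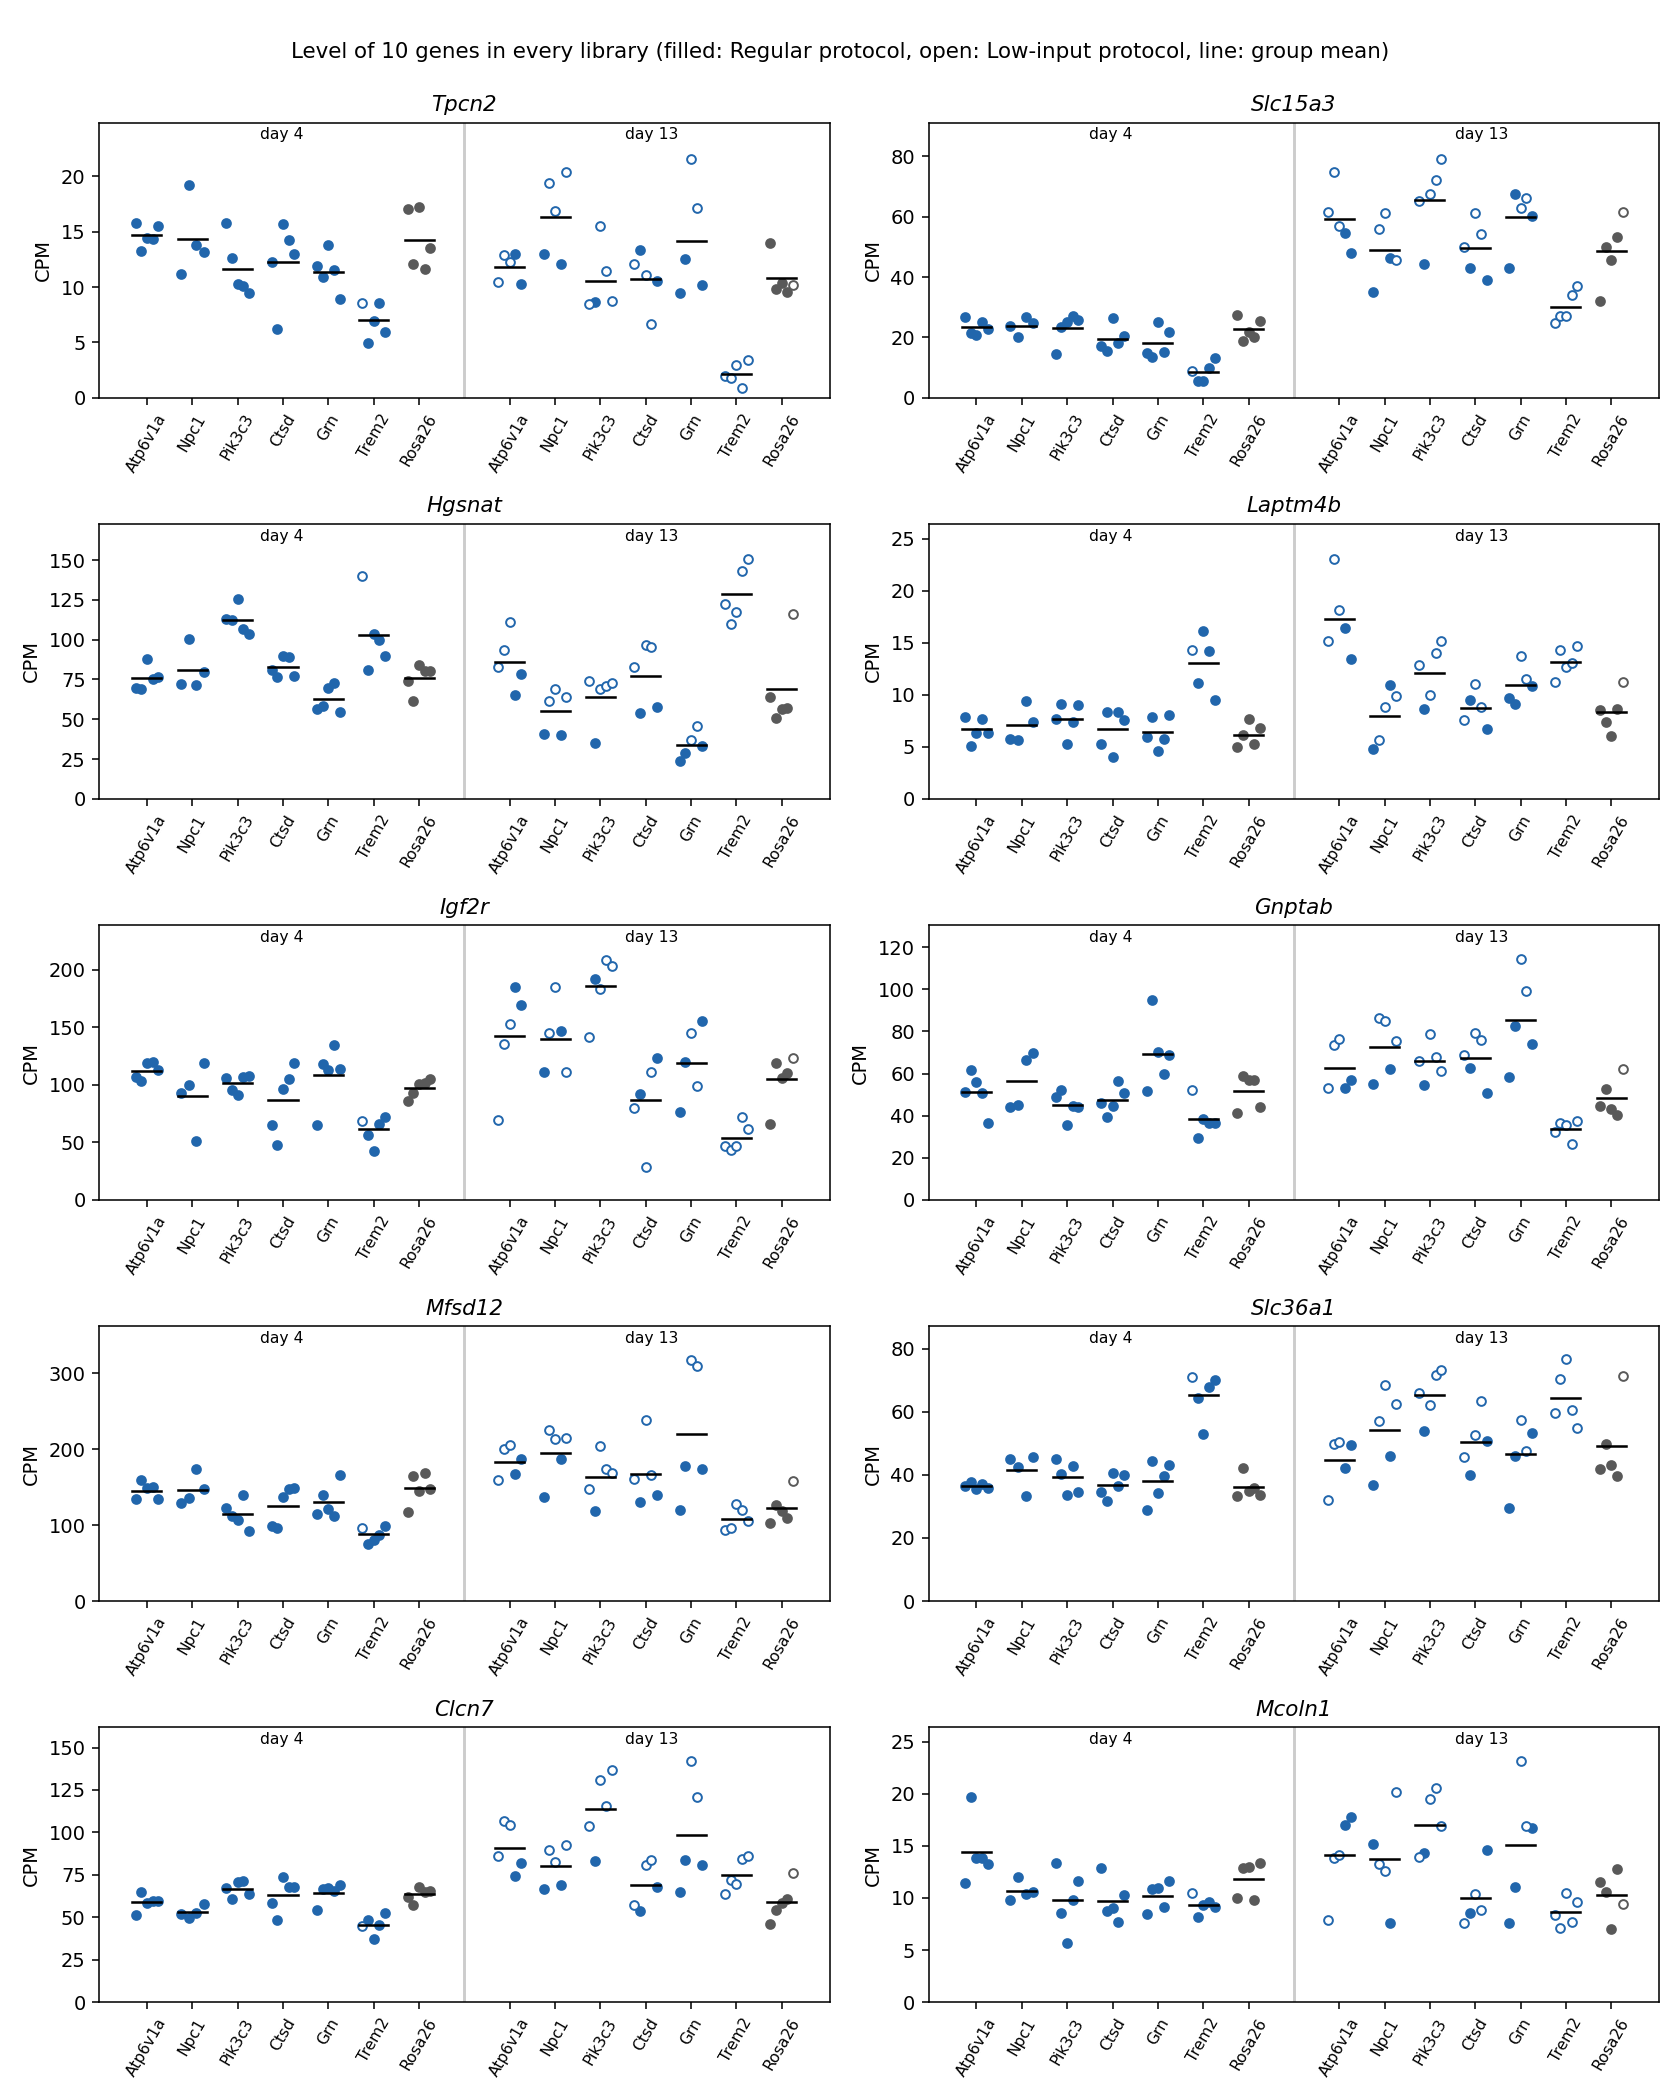
Level (CPM) of the 10 members with the largest called changes, 1 panel per gene, with a point for each library of the 6 targeted groups and then of Rosa26 cells at each day, filled for Regular and open for Low-input libraries, and a line at the group mean. Hgsnat spans 23.8 to 45.9 CPM in Grn-targeted cells at day 13, below the lowest Rosa26 library at 50.6, and Tpcn2 spans 0.854 to 3.39 CPM in Trem2-targeted cells at day 13, below 9.57.

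Of the 5 sorting genes, Gnptab and Igf2r changed and M6pr, Gnptg and Gga1 did not pass the test in any group. Gnptab encodes the catalytic part of the phosphotransferase that starts the mannose 6-phosphate tag. In Trem2-targeted cells at day 13 it was at 32.04, 36.4, 35.6, 26.5 and 37.6 CPM, against 44.6, 52.7, 43.0, 40.1 and 62.2 CPM in Rosa26 cells. All 5 Trem2 libraries lay below all 5 Rosa26 libraries, and the change was -0.86 ± 0.14 (adjusted p = 2.07e-06), with -0.52 ± 0.13 at day 4 (0.00129). In Grn-targeted cells Gnptab went the other way, by 0.78 ± 0.12 at day 13 (1.32e-06) and 0.43 ± 0.12 at day 4 (0.0160). The day 4 call was lost without Rosa26 replicate 1 or 5 or Grn replicate 2 (up to 0.133).

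Igf2r, the large receptor for the mannose 6-phosphate tag, was at 141.8, 192, 183, 208 and 203 CPM in Pik3c3-targeted cells at day 13, against 66.0, 119, 106, 110.3 and 123 CPM in Rosa26 cells. The groups did not overlap, and replicate 1 was the lowest library of each. The change was 0.91 ± 0.22 (adjusted p = 0.00157). In Trem2-targeted cells Igf2r fell by 0.86 ± 0.24 at day 13 (0.00494) and by 0.64 ± 0.22 at day 4 (0.0240), the second call being lost without Rosa26 replicate 3 or 5 or Trem2 replicate 2 or 3 (up to 0.104). M6pr, the small receptor for the tag, had changes between -0.27 and 0.11, Gnptg, the gamma subunit of the phosphotransferase, between -0.23 and 0.25, and Gga1, a clathrin adaptor that binds the receptors' tails, between -0.30 and 0.12.

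The day 13 changes were also computed within each protocol. Every Low-input comparison with Rosa26 cells rests on 1 control library, replicate 5, which was also the highest in stromal markers, and the Regular comparison of Pik3c3-targeted cells rests on 1 targeted library, replicate 2. The values of those comparisons are descriptions. In Atp6v1a-targeted cells the 10 members called higher over all libraries were also higher among Regular libraries, 8 of them called, and ran from 0.09 to 0.81 among Low-input libraries. In Pik3c3-targeted cells the 11 members called higher ran from 0.07 to 0.93 among Regular and from 0.24 to 0.98 among Low-input libraries. Of the 14 in Grn-targeted cells, 14 were higher among Regular libraries (10 called) and 13 among Low-input libraries, the exception being Lamp2 at -0.04. Hgsnat in Grn-targeted cells was at -0.89 among Regular and -1.41 among Low-input libraries. Trem2-targeted cells have no Regular library at day 13. Against the single Low-input Rosa26 library, their 6 members called higher ran from 0.12 to 0.45, and their 5 called lower from -2.19 (Tpcn2) to -0.53.

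**Figure D4:**
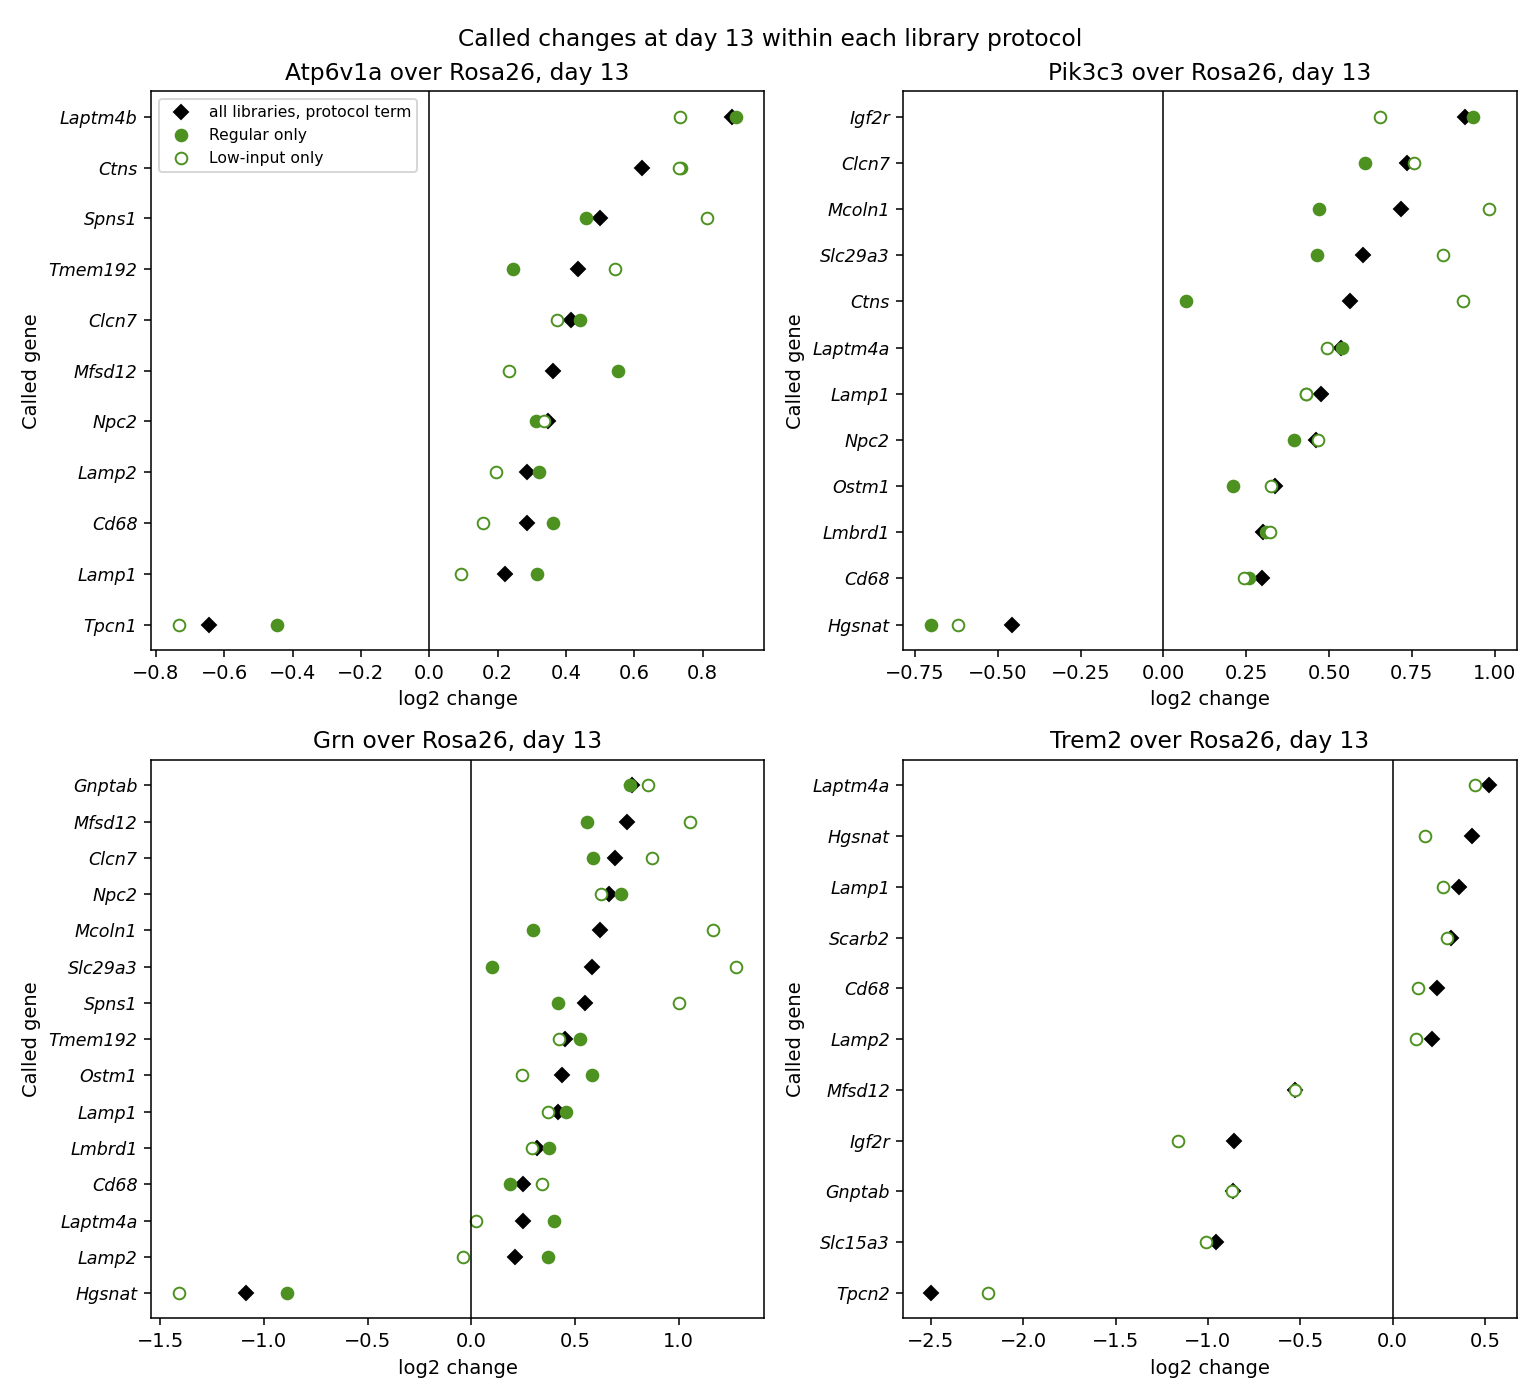
Log2 change against Rosa26 cells at day 13 for the members called in Atp6v1a-, Pik3c3-, Grn- and Trem2-targeted cells, from all libraries (diamonds), Regular libraries alone (filled circles) and Low-input libraries alone (open circles), the last resting on 1 Rosa26 library and the Regular values of Pik3c3-targeted cells on 1 targeted library. In Atp6v1a- and Pik3c3-targeted cells every point has the direction of its diamond, and Tpcn2 in Trem2-targeted cells stands at -2.19 with no Regular value.

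The change between the days was tested as the day 13 effect minus the day 4 effect. In Grn-targeted cells 8 members had a more positive effect at day 13 and 1 a more negative one (27.3%), against 10.3% of all genes (4.74% more positive, 5.6% more negative). They were led by Mfsd12 (0.92 ± 0.18, adjusted p = 0.000123), Slc29a3 (0.85 ± 0.27, 0.0298), Npc2 (0.66 ± 0.10, 8.27e-07) and Clcn7 (0.66 ± 0.15, 0.00120), and by Hgsnat (-0.81 ± 0.15, 0.000109). Of these, Slc29a3 was lost without Rosa26 replicate 3 or 4 or Grn replicate 1 of day 4, or Rosa26 replicate 1 or 5 or Grn replicate 3 or 4 of day 13 (up to 0.125). Pik3c3-targeted cells had 7 more positive and 1 more negative (24.2%), against 6.19% of all genes (3.61% and 2.58%), with Clcn7 at 0.65 ± 0.15 (0.00240), Npc2 at 0.48 ± 0.10 (0.000686), Lamp1 at 0.47 ± 0.09 (0.000362) and Hgsnat at -1.04 ± 0.15 (6.52e-07). Hgsnat thus rose at day 4 and fell at day 13 in Pik3c3-targeted cells. Atp6v1a-targeted cells had 3 more positive (9.09%), against 11.4% of all genes (5.56% and 5.81%): Ctns (0.76 ± 0.21, 0.0101), Clcn7 (0.53 ± 0.15, 0.0107) and Npc2 (0.35 ± 0.10, 0.0120), a share near the background. Trem2-targeted cells had 3 in each direction (18.2%), against 7.95% of all genes (4% and 3.96%). Tpcn2 had the more negative effect at day 13 (-1.42 ± 0.36, 0.00646), and Cd68, lower at day 4 and higher at day 13, a difference of 0.60 ± 0.12 (0.000487). The Trem2 comparison sets 1 Low-input library at day 4 (replicate 1) beside 5 at day 13. Without that library the calls of Clcn7 (0.107), Tpcn1 (0.0796) and Slc17a5 were lost, so that 3 of the 6 were left. In Npc1-targeted cells Hgsnat alone was called (-0.70 ± 0.15, 0.0189), with 0.2% of all genes (0.0833% and 0.117%), and it was lost without Rosa26 replicate 2 or Npc1 replicate 3 of day 4 or Rosa26 replicate 5 of day 13 (up to 0.147). In Ctsd-targeted cells 0 members were called by edgeR and 0 by DESeq2, with 6 at an unadjusted p under 0.05 and 0.00833% of all genes called.

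The control cells changed between the days too. In Rosa26 cells 4 members were higher and 6 lower at day 13 than at day 4 (30.3%), where 30.6% of all genes were called (15% higher, 15.6% lower), a share near the background. Slc15a3 was at 48.6 ± 10.9 CPM at day 13, against 22.8 ± 3.68 CPM at day 4 (SD, n = 5 each), a rise of 1.05 ± 0.16 (adjusted p = 1.37e-07). Slc17a5 (0.44, 0.00121) and Slc36a1 (0.41, 0.00484) rose as well. Cd68 fell by 0.50 ± 0.08 (1.76e-06), Slc15a4 by 0.54 (0.000537) and Tpcn1 by 0.49 (0.00329). Lmbrd1 rose by 0.24 and Hgsnat, Mfsd12 and Spns1 fell by 0.29, 0.33 and 0.47, and these 4 calls hung on single libraries. Hgsnat was lost without replicate 3 or 5 of day 4 or 2, 3 or 4 of day 13 (adjusted p up to 0.173), and Lmbrd1 without 4 or 5 of day 4 or 1 of day 13 (up to 0.0787). Mfsd12 was lost without replicate 2, 3 or 4 of day 4 or 1, 3, 4 or 5 of day 13 (up to 0.0828), and Spns1 without 1 of day 4 or 5 of day 13 (up to 0.102).

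Targeted groups were also compared directly, without Rosa26 cells. The 3 direct comparisons were made at day 13. Grn-targeted against Trem2-targeted cells had 15 members higher and 5 lower in Grn-targeted cells (60.6%), against 43.5% of all genes (20.7% higher, 22.8% lower). Tpcn2 differed by 2.90 ± 0.26 (adjusted p = 4.56e-15), Gnptab by 1.64 ± 0.13 (4.55e-17), Mfsd12 by 1.28 ± 0.13 (4.07e-13), Slc15a3 by 1.26 ± 0.16 (5.55e-10) and Igf2r by 1.12 ± 0.23 (4.02e-05). Hgsnat was lower in Grn-targeted cells by far, at -1.51 ± 0.11 (2.08e-18). It averaged 33.8 ± 8.38 CPM in Grn-targeted and 129 ± 17.3 CPM in Trem2-targeted cells (SD, n = 5 each). CPM values keep the protocol difference, and Hgsnat was called higher in Low-input than in Regular libraries. All 5 Trem2 libraries were Low-input, but of the Grn libraries only replicates 3 and 4 were, at 37.1 and 45.9 CPM. Npc2 (0.75 ± 0.07, 9.53e-14), Clcn7 (0.64 ± 0.11, 6.65e-07) and Mcoln1 (0.92 ± 0.22, 0.000390) were higher in Grn-targeted cells. Of the 20 calls, 7 were lost when 1 library was left out. Slc15a4 (0.148) and Slc29a3 (0.239) were lost without Grn replicate 3, Slc17a5 without Grn replicate 3 or Trem2 replicate 1 or 3 (up to 0.0881), and Spns1 without Grn replicate 2 or 3 or Trem2 replicate 3 or 5 (up to 0.184). Laptm4a was lost without Grn replicate 3 or 4 or Trem2 replicate 2 or 3 (up to 0.107), Scarb2 without Grn replicate 1 or Trem2 replicate 2 or 3 (up to 0.0995), and Tpcn1 without Grn replicate 1, 2 or 5 or Trem2 replicate 1 or 4 (up to 0.105). Among Low-input libraries alone, 2 of Grn- and 5 of Trem2-targeted cells, all 15 kept their direction, and 4 of the 5 lower ones did, Tpcn1 being at 0.02.

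**Figure D5:**
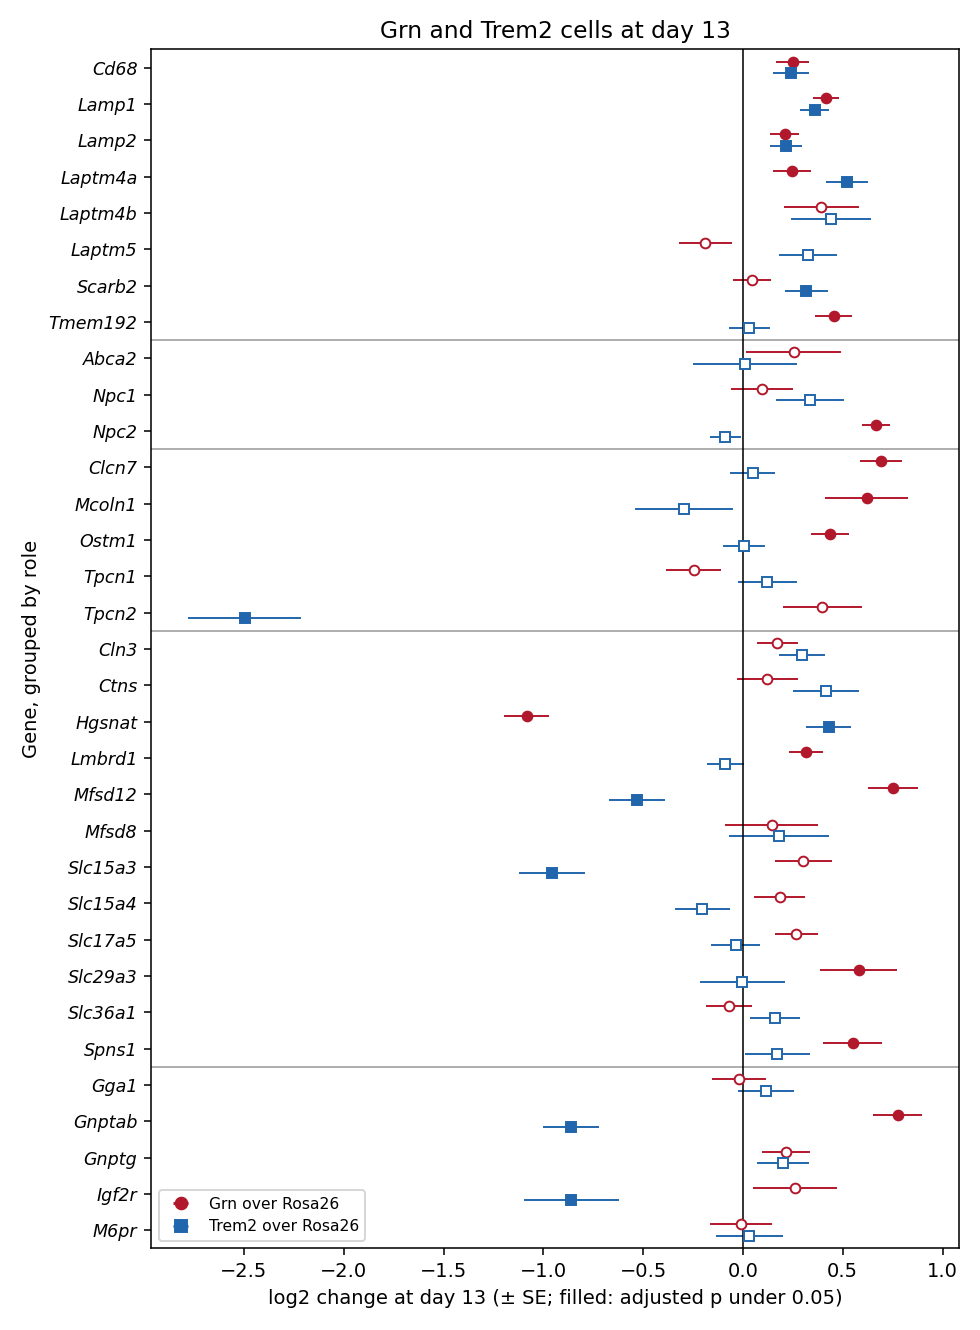
Log2 change against Rosa26 cells at day 13 in Grn-targeted and in Trem2-targeted cells for each member, with the SE as bars and filled symbols for called changes; both changes share the same 5 Rosa26 libraries. Hgsnat stands at -1.08 in Grn- and 0.43 in Trem2-targeted cells, and Gnptab at 0.78 in Grn- and -0.86 in Trem2-targeted cells.

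Atp6v1a-targeted cells were set against Pik3c3- and Grn-targeted cells in the same way. Against Pik3c3-targeted cells 2 members were higher and 9 lower in Atp6v1a-targeted cells (33.3%), against 18.5% of all genes (9.31% higher, 9.19% lower). Hgsnat was higher by 0.50 ± 0.10 (adjusted p = 0.000150), while Laptm5 (-0.61 ± 0.13, 0.000373), Slc36a1 (-0.55 ± 0.11, 0.000142) and Lamp1 (-0.25, 0.00295) were lower. The calls of Laptm4b, Clcn7, Cln3, Scarb2 and Tpcn1 were each lost without at least 1 library (up to 0.163). The 9 members called lower had changes from -0.94 to -0.34 among Low-input libraries, and from -0.39 to 0.03 among Regular libraries, where Pik3c3-targeted cells have only replicate 2. Against Grn-targeted cells 3 members were higher and 8 lower in Atp6v1a-targeted cells (33.3%), against 19.7% of all genes (10% higher, 9.68% lower). Hgsnat was higher by 1.13 ± 0.11 (4.25e-13) and Ctns by 0.50 ± 0.14 (0.00783), while Gnptab (-0.63 ± 0.12, 3.82e-05) and Npc2 (-0.32 ± 0.07, 0.000348) were lower. Here the calls of Laptm4b, Clcn7, Lamp1, Mfsd12, Ostm1 and Tpcn1 were each lost without at least 1 library (up to 0.268). Without Grn replicate 4 the members called numbered 6, the lowest count when 1 library was left out. All genes called then ran from 1975 to 2679, against 2366 with all libraries.

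Other lysosomal gene lists, set beside the 33 members, had the following calls at day 13, where 25.2% of all genes were called in Grn-, 24.4% in Atp6v1a-, 22.2% in Trem2-, 13.2% in Pik3c3- and 4.46% in Npc1-targeted cells. Of the V-ATPase subunits, which build the proton pump, 15 of 16 tested rose in Grn-targeted cells at day 13 and 0 fell, led by Atp6v0d2 at 1.03 and Atp6v1c1 at 0.97. With the targeted subunit set apart, 11 of 15 rose in Atp6v1a-targeted cells, led by Atp6v1c1 at 1.05. There were 10 of 16 higher in Pik3c3- and 9 of 16 in Npc1-targeted cells, led by Atp6v0d1 at 0.71 and Atp6ap1 at 0.49, and 0 of 16 called in Ctsd-targeted cells. In Trem2-targeted cells 2 rose and 4 fell, with Atp6v0d2 at -2.77 ± 0.18. Of 39 lysosomal hydrolases tested, 18 rose and 2 fell in Pik3c3-targeted cells, 16 rose and 2 fell in Grn-targeted cells, 15 rose and 9 fell in Trem2-targeted cells, and 6 rose and 10 fell in Atp6v1a-targeted cells. Of 30 other lysosomal membrane genes tested, 9 rose and 2 fell in Trem2-targeted cells, 8 rose and 1 fell in Pik3c3-targeted cells, and 6 rose and 3 fell in Grn-targeted cells, a total near the share of all genes. Cd63, a tetraspanin of late endosomes, rose by 0.99 ± 0.09 in Grn-targeted cells. Atp6v1a-targeted cells had 6 higher and 6 lower, led by Slc46a3 at -1.39 ± 0.21 and Slc37a2 at -1.20 ± 0.12. Of 24 other sorting genes, 8 rose and 2 fell in Trem2-targeted cells, with Sort1, the sorting receptor sortilin, at 0.65, while Sort1 was at -0.98 in Atp6v1a-targeted cells. In Atp6v1a-targeted cells 3 of these sorting genes rose and 6 fell, and in Grn-targeted cells 4 rose and 1 fell. Pik3c3- and Npc1-targeted cells had 1 higher and 1 lower each. Gga2, a relative of Gga1, rose by 0.95 in Pik3c3-, 0.79 in Atp6v1a-, 0.61 in Grn- and 0.35 in Npc1-targeted cells. Ap1b1, of the same list, was at -1.17 in Atp6v1a-, -0.58 in Grn-, -0.58 in Pik3c3- and -0.38 in Npc1-targeted cells, and at 0.44 in Trem2-targeted cells. Among these counts, Lamp1, Mfsd12, Gnptg, Ostm1, Slc15a3 and Npc1 overlap a gene on the other strand at their 3′ end, and since no source used here states the strand setting of the counting, reads of the 2 strands cannot be told apart for them.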

How the data were processed

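The authors made 3′ tag libraries with unique molecular identifiers; per the labels' protocols, reads were 75 bp from 1 end. Per the submitters' processing notes, Salmon and GRCm39 were used to make the deposited estimated counts. Of the values above 0, 31.2% were not whole, and they were rounded for the tests. The authors' deposited log2 CPM table served as a check and lay a median of 0.0226 (at most 0.129) from the members' values computed here. RNA integrity numbers ran from 8.6 to 10, with 4 missing. Tests used R 4.3.3, edgeR 4.0.16, limma 3.58.1 and, as an alternative, DESeq2 1.42.0. All 69 libraries entered 1 edgeR quasi-likelihood fit with TMM scaling, a mean for each of the 14 groups and a term for protocol. Genes were filtered with filterByExpr by group and tests were two-sided. The SE was obtained from the change and its F statistic (change over root F). The fit was tested on simulated data. Promoters came from RefSeq on GRCm38.p6, since no GRCm39 genome was used here. Within groups, all pairs of libraries differed beyond sampling noise (chi-square per degree of freedom 1.70 to 66.7). That replicates are biological is per the series design. Every member was named, with changes for those leading each comparison and values in every library for the 10 with the largest called change. The members, the other gene lists and the marker lists were chosen with earlier results of these data known.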

Additional observations from a re-analysis of the deposited data

Results flagged for a closer look

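Values of 10 members, and of Npc1 in Npc1-targeted cells and their Rosa26 controls, were examined for a library far from the rest of its group. Over 24 sets of libraries 3 were found, where chance gives about 1 in 20 sets. Hgsnat was at 115.8 CPM in Rosa26 replicate 5 at day 13, the Low-input library, with the nearest other at 64.1 CPM. Slc36a1 was at 42.3 CPM in Rosa26 replicate 2 at day 4, with the nearest other at 35.97 CPM. Tpcn2 was at 13.98 CPM in Rosa26 replicate 1 at day 13, with the nearest other at 10.35 CPM.

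The effect against Rosa26 cells differed between day 13 and day 4 for 27 pairs of member and target, by the test of the difference in the edgeR fit. The differences that follow are day 13 effect minus day 4 effect on the log2 scale. In Atp6v1a-targeted cells they were 0.76 for Ctns, 0.53 for Clcn7 and 0.35 for Npc2. In Npc1-targeted cells Hgsnat had -0.70. In Pik3c3-targeted cells they were 0.98 for Slc29a3, 0.96 for Mcoln1, 0.70 for Ctns, 0.65 for Clcn7, 0.55 for Laptm4a, 0.48 for Npc2, 0.47 for Lamp1 and -1.04 for Hgsnat. In Grn-targeted cells they were 0.92 for Mfsd12, 0.85 for Slc29a3, 0.66 for Npc2, Clcn7 and Spns1, 0.52 for Cd68, 0.40 for Lmbrd1, 0.29 for Lamp1 and -0.81 for Hgsnat. In Trem2-targeted cells they were 0.80 for Tpcn1, 0.61 for Clcn7, 0.60 for Cd68, -0.53 for Slc17a5, -0.63 for Slc36a1 and -1.42 for Tpcn2. The targets' share of Low-input libraries also differs between the days, and its part beyond the protocol term was not tested.

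Some of these differences were lost when 1 library was left out. In Trem2-targeted cells these were Clcn7 and Tpcn1 without Trem2 replicate 1 of day 4 (adjusted p 0.107 and 0.0796), Slc36a1 without Rosa26 replicate 5 of day 13 (0.0517), and Slc17a5 without Trem2 replicate 1 of day 4, or Rosa26 replicate 4 or Trem2 replicate 1 or 3 of day 13 (up to 0.0810). In Grn-targeted cells Lamp1 was lost without Rosa26 replicate 4 or Grn replicate 1 of day 4, or Rosa26 replicate 4 or Grn replicate 2 or 5 of day 13 (up to 0.0633). Spns1 was lost without Rosa26 replicate 1 or 4 or Grn replicate 5 of day 4, or Rosa26 replicate 5 or Grn replicate 2 or 3 of day 13 (up to 0.130). In Pik3c3-targeted cells Slc29a3 was lost without Pik3c3 replicate 2 of day 4 or Rosa26 replicate 5 of day 13 (up to 0.0619). Mcoln1 was lost without 12 of the 20 libraries (up to 0.119) and Ctns without 14 of the 20 (up to 0.136).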

How the results depend on the processing

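Between days, 'effect' means the day 13 minus the day 4 effect. Of 151 called member changes, 151 were kept with the replicate block and protocol term, 148 by DESeq2, 144 with DESeq2's size factors in edgeR, 117 with no filter and 113 with no protocol term. Among Regular libraries 69 of 114 were kept, and among Low-input libraries 43 of 94. Leaving out 1 library kept 1563 of 1779.

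Members called changed as follows. With the replicate block they were 5 for the Atp6v1a effect (against 3), 5 for Grn day 4 (3), 2 for the Npc1 effect (1) and 13 for the Pik3c3 effect (8). Same-numbered libraries correlated between -0.103 and 0.396 and not above 0.1 in all pairs of any comparison. The same-numbered Rosa26 library was the best match in 1 of 5 pairs for Pik3c3 day 13. It was the best match in 4 of 5 pairs for Atp6v1a at both days and Trem2 day 13, and in 3 of 5 for Npc1 and Grn day 13. For the other comparisons it was so in 2 pairs each, of 4 for Npc1 day 4 and of 5 otherwise. Each library was set against all 5 Rosa26 libraries of its day. These values do not settle whether the numbers pair the samples, and the main fit does not pair them. With Regular libraries only they were 6 for Atp6v1a against Grn (11), 1 for Atp6v1a against Pik3c3 (11), 0 for the Npc1 effect (1) and Npc1 day 13 (3), 1 for the Pik3c3 effect (8) and 5 for Pik3c3 day 13 (12). With Low-input libraries only they were 2 for Atp6v1a (11), 7 for Grn (15), 1 for Npc1 (3), 2 for Pik3c3 (12) and 3 for Trem2 (11), all at day 13. With no filter they were 7 for Atp6v1a against Grn, 1 for the Ctsd effect (0), 0 for the Npc1 effect and 5 for Npc1 day 13. With no protocol term they were 4 for Atp6v1a against Grn, 6 for Atp6v1a against Pik3c3, 1 for Grn day 4, 0 for the Npc1 effect, 20 for Pik3c3 day 13, 0 for Pik3c3 day 4 (1), 6 for Rosa26 day 13 against day 4 (10) and 19 for Trem2 day 13.

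Directions turned for 5 called changes: among Regular libraries Cln3 (0.033) and Scarb2 (0.014) in Atp6v1a against Pik3c3 and Tpcn1 (0.10) in Atp6v1a against Grn, and among Low-input libraries Lamp2 in Grn day 13 (-0.042) and Tpcn1 in Grn against Trem2 (0.017). The cause was not tested.

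Over all tested genes, counts with no protocol term were 1326 for Atp6v1a against Grn (2366), 0 for the Ctsd effect (1), 4 for Ctsd day 4 (15), 777 for the Grn effect (1241), 300 for Grn day 4 (966), 15 for the Npc1 effect (24), 3280 for Pik3c3 day 13 (1587), 6 for Pik3c3 day 4 (21), 2191 for Rosa26 day 13 against day 4 (3674), 1744 for the Trem2 effect (955) and 5388 for Trem2 day 13 (2666). With Regular libraries only they were 413 for Atp6v1a against Pik3c3 (2221), 0 for the Ctsd effect, 2 for Ctsd day 13 (24), 10 for the Npc1 effect, 101 for Npc1 day 13 (536), 2 for Npc1 day 4 (1), 243 for the Pik3c3 effect (743) and 450 for Pik3c3 day 13. With Low-input libraries only they were 975 for Atp6v1a (2927), 49 for Ctsd, 601 for Grn (3028), 82 for Npc1, 465 for Pik3c3 and 949 for Trem2, all at day 13. With no filter they were 19 for Atp6v1a day 4 (1), 101 for the Ctsd effect, 132 for Ctsd day 13, 81 for Ctsd day 4, 86 for the Npc1 effect, 22 for Npc1 day 4 and 55 for Pik3c3 day 4. By DESeq2 they were 5 for Atp6v1a day 4, 4 for the Ctsd effect, 13 for Ctsd day 13, 29 for Ctsd day 4, 3 for Npc1 day 4 and 34 for Pik3c3 day 4. With the replicate block they were 7 for the Ctsd effect, 34 for Ctsd day 4, 52 for the Npc1 effect and 42 for Pik3c3 day 4. Leaving out 1 library gave 1 to 2 for Atp6v1a day 4, 0 to 3 for the Ctsd effect, 3 to 28 for Ctsd day 13, 5 to 19 for Ctsd day 4, 629 to 1147 for Grn day 4, 10 to 34 for the Npc1 effect, 318 to 636 for Npc1 day 13, 11 to 27 for Pik3c3 day 4 and 592 to 1064 for the Trem2 effect. Among members it gave 3 to 6 for the Atp6v1a effect, 6 to 12 for Atp6v1a against Grn, 7 to 11 for Atp6v1a against Pik3c3, 1 to 5 for Grn day 4, 0 to 1 for the Npc1 effect, 5 to 10 for the Pik3c3 effect and 3 to 6 for the Trem2 effect. Trem2 day 13 has no value among Regular libraries.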
